A study of Mus musculus with 10 samples.

Results

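The genes described here are 34 markers of the endothelium, the cell layer that lines blood and lymph vessels, read in sorted epithelial cells of the mouse mammary gland. They were taken from a list of gene names, and each was measured by the brightest probe set (a group of array probes read as 1 value) that names that gene alone. Of the 34 genes, 33 were measured, among 19935 genes named this way, and Selp had no probe set of its own. The filter on dim probe sets, set on the mean over all arrays, left 31 of them among 15815 genes tested. Clec14a and Mmrn1 were too dim to enter.

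Total RNA was measured on 10 Affymetrix arrays, 1 for each sample, labelled as biological replicates. The mice were virgin females of 8 to 12 weeks, either control or Pygo2 SSKO, littermates that shared cages. The 3 groups were basal cells of control mice (4 arrays), basal cells of SSKO mice (3 arrays) and mature luminal cells of control mice (3 arrays). Basal cells, which the labels also call MaSC (a name for mammary stem cells), were sorted as lineage-negative, high in CD29 and positive for CD24. Luminal cells were lineage-negative, low in CD29, positive for CD24 and negative for CD61. The lineage antibodies of the sort were against CD31, CD45 and TER119, so the gate was set to leave out endothelial cells, leukocytes and red cells, and Pecam1 encodes CD31. The meaning of SSKO, the promoter that drives the deletion, the strain, and whether cells of several mice were pooled are not given in the sources used here. Each array read a population of cells, so which cells held a transcript, how many did, and how much each held cannot be told apart.

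Endothelial cells hold together through cadherin and claudin junctions, and they answer the growth factors VEGF and angiopoietin through receptor tyrosine kinases. Transcription factors of the ETS and SOX families set much of their gene expression. Lymphatic endothelium differs from blood endothelium in using PROX1, VEGFR3 (Flt4) and the hyaluronan receptor LYVE1. Venules carry the selectins and the chemokine receptor ACKR1, through which leukocytes leave the blood. High endothelial venules, which serve lymphocytes in lymph nodes, also make the mucin GLYCAM1, a gene that the lactating mammary epithelium uses as well. The mammary gland holds all these vessels in its fat pad, and mouse mammary glands commonly contain a lymph node.

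The sequence upstream of 5 genes is shown. Emcn is a blood marker, Flt4 a lymphatic marker, and Ackr1 and Sele are venule markers, while Glycam1 belongs to none of these classes and varied between the arrays. Each run is the 250 bases before the annotated start, from RefSeq on GRCm38.p6, read 5′ to 3′ along the gene's own strand. Capitals mark AGGAAG, a sequence with the core that ETS factors bind, or its reverse complement CTTCCT.
Emcn (endomucin, a mucin of capillary and venous endothelium, chr3:137340828-137341077, plus strand): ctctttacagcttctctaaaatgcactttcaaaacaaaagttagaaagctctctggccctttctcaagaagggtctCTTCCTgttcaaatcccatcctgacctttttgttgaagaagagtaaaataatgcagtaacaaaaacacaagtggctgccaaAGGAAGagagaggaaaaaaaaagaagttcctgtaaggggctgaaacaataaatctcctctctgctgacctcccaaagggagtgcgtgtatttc
Flt4 (the lymphatic VEGF-C receptor, chr11:49609429-49609678, plus strand): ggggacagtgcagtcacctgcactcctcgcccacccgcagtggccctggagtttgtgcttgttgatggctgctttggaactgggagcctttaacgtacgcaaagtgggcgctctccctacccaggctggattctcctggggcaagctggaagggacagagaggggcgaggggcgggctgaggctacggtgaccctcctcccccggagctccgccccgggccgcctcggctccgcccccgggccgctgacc
Ackr1 (the venule chemokine receptor, chr1:173333504-173333753, minus strand): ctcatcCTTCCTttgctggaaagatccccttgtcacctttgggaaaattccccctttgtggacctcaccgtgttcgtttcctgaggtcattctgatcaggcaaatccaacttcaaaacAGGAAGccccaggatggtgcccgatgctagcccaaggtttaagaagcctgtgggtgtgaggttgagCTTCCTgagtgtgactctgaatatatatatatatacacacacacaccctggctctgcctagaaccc
Sele (E-selectin, chr1:164047984-164048233, plus strand): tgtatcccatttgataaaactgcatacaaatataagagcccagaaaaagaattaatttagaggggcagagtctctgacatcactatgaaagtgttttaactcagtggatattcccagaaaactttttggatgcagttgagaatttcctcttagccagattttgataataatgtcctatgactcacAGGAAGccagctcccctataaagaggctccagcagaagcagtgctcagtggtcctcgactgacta
Glycam1 (named beside the 34 genes, chr15:103565082-103565331, minus strand): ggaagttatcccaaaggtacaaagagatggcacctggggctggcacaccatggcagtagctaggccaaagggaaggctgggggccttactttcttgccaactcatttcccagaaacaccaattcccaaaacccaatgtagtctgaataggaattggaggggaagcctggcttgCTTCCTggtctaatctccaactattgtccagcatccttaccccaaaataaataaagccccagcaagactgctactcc

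Emcn holds 2 matches, Ackr1 holds 3, Sele and Glycam1 hold 1 each, and the Flt4 window holds 0. RefSeq windows were matched for 21 of the 34 genes, 27 windows in all because some genes have several starts. On either strand AGGAAG was found in 13 of the 27 windows (48.1%), against 29.5% of all 32851 windows of this length. The longer ETS sequence AACAGGAA, which overlaps AGGAAG where a G follows it, was found in 3 windows (11.1%, against 2.25%), those of Ackr1, Egfl7 and Emcn. CCGGAAG was found in 0 of the 27 windows, against 6.91% of all. The GATA sequence AGATAA was found in 2 windows (7.41%, against 9.99%), and the SOX sequence AACAAT in 4 (14.8%, against 9.42%). These are matches of letters, with no measurement of binding.

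All levels below are log2(intensity + 16) of 1 probe set, so a difference of 1 is a doubling on that scale, the change of dim genes is understated, and the levels of different genes are not compared. The background of an array was set at the 95th percentile of 1204 probe sets for olfactory and vomeronasal receptors, and lay between 7.23 and 7.70. Median intensities were close over the 10 arrays, from 205 to 228. The basal marker Krt5 read 13.10 to 13.55 in the 7 basal arrays and 9.06, 7.70 and 11.68 in luminal arrays 1, 2 and 3, so luminal array 3 held the most basal signal of its group. Pygo2 was lower in SSKO than in control basal cells by a log2 difference of 2.34 (limma adjusted p = 0.0441), the direction its label gives. This call was lost under several alternatives listed at the end.

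Signal of endothelial genes was present in the sorted cells. Of the 33 measured genes, 11 were above the array's background on all 10 arrays, 21 on some and 1, Clec14a, on none. The number above background was 31, 19, 26 and 26 in control basal arrays 1 to 4, then 32, 18 and 30 in SSKO basal arrays 1 to 3. In luminal arrays 1 to 3 it was 19, 15 and 18. Control basal array 1 and SSKO basal arrays 1 and 3 thus had the most members above background, and SSKO basal array 2 had the fewest among basal arrays.

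**Figure D1:**
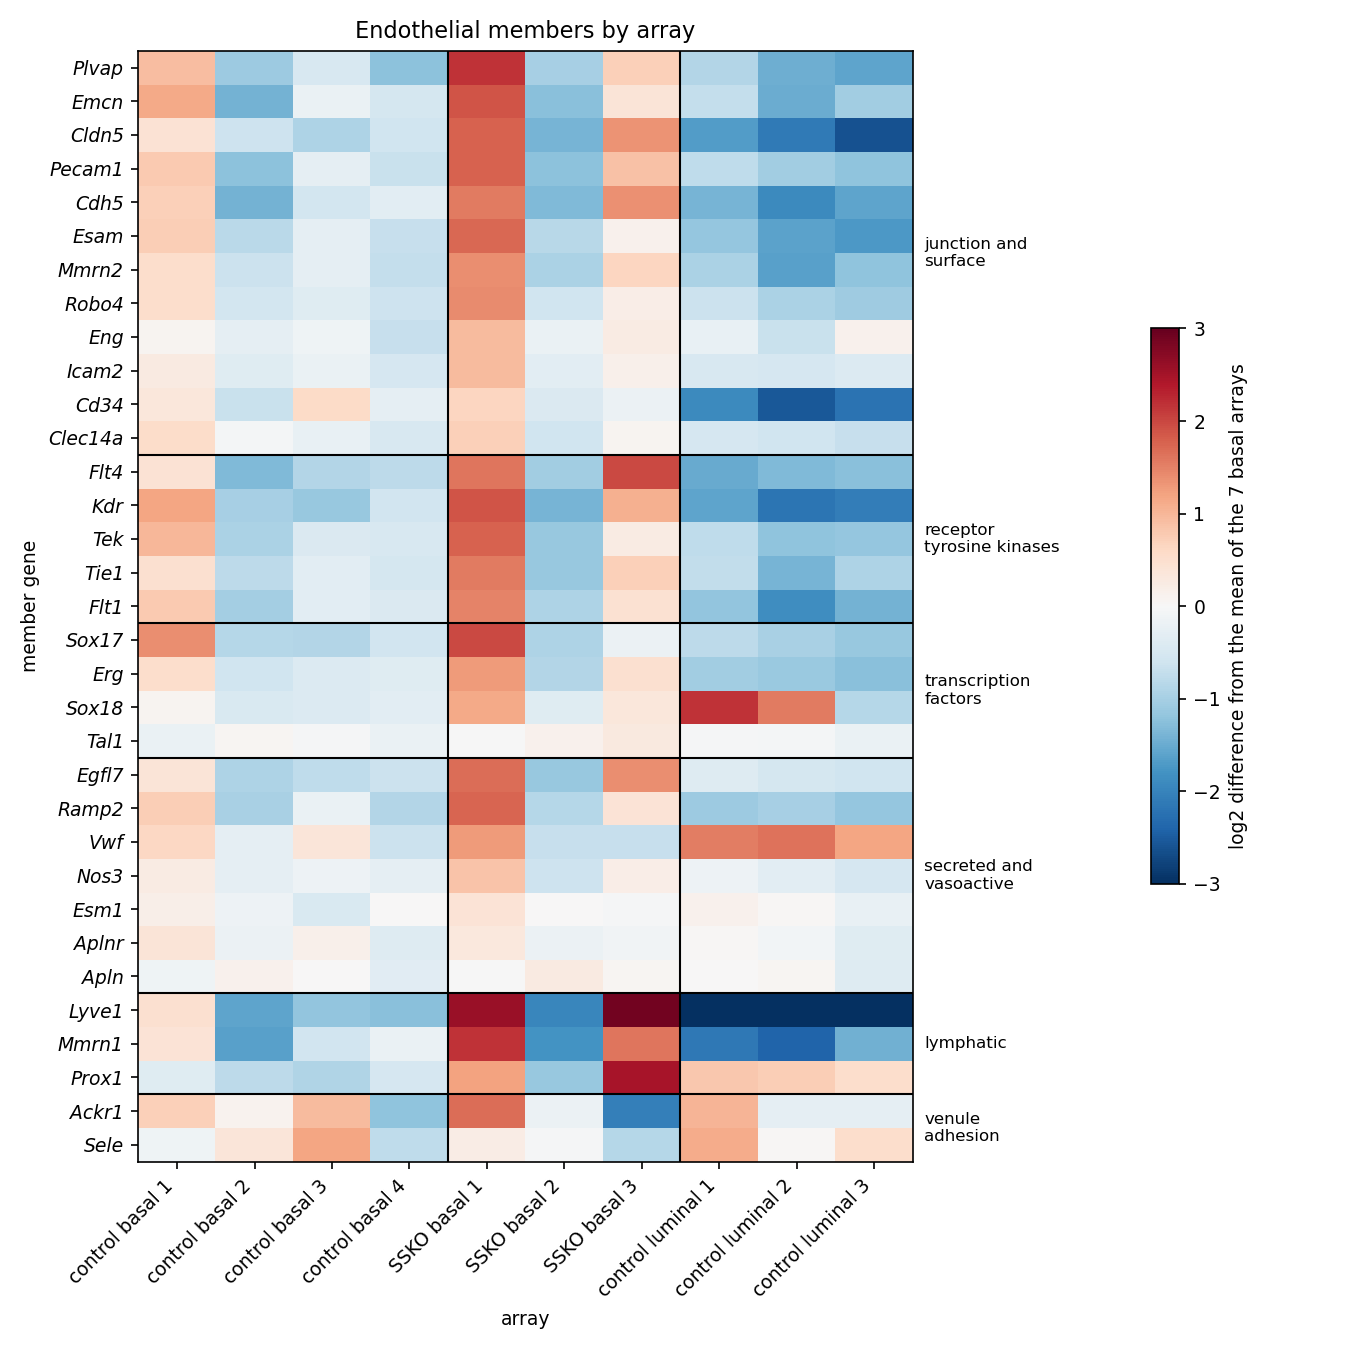
Each row is 1 of the 33 measured endothelial genes and each column an array, and the colour is the log2 level minus the gene's mean over the 7 basal arrays, on a scale that stops at 3 in either direction. Most rows are high in control basal array 1 and SSKO basal arrays 1 and 3, Lyve1 in the luminal arrays lies past the end of the scale, and Vwf and Sox18 are rows with high luminal arrays.

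Of the 11 tested junction and surface genes, all 11 had control array 1 and SSKO array 1 among the highest 3 basal arrays, and 10 had SSKO array 3 there, the exception being Cd34. The shares of all genes with control array 1, SSKO array 1 and SSKO array 3 there were 42.7%, 38.6% and 38.4%. Pecam1 (probe set 10392221), the adhesion molecule CD31 on which the gate was set, read 10.34, 8.31, 9.27 and 8.87 in control basal arrays 1 to 4, 11.31, 8.32 and 10.41 in SSKO basal arrays 1 to 3, and 8.79, 8.51 and 8.35 in luminal arrays 1 to 3. It was above background on all 10 arrays, so its messenger RNA was read in cells from a gate against its protein. SSKO array 1 was highest and the basal groups overlapped, with a mean of 9.20 ± 0.86 (SD, n = 4) for the controls against 10.01 ± 1.54 (SD, n = 3) for SSKO. Plvap (probe set 10579525), the protein of the diaphragms of endothelial pores, read 10.89, 8.87, 9.47 and 8.72 in control basal, 12.13, 8.97 and 10.66 in SSKO basal, and 9.08, 8.50 and 8.37 in luminal arrays. Again the first array of each basal group and the third SSKO array were high, and the second of each was near the luminal level.

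Emcn (probe set 10496359), whose upstream sequence is shown above, read 10.59, 8.04, 9.26 and 8.94 in control basal, 11.34, 8.21 and 9.84 in SSKO basal, and 8.74, 7.97 and 8.42 in luminal arrays. Its 7 basal values spanned 3.29, a 9.81-fold range, and the second array of either basal group lay inside the luminal range. The other tested genes of this role spanned from 1.32 to 3.16 over the 7 basal arrays. At the low end was Cd34, a surface sialomucin that stromal fibroblasts and blood progenitors also carry, which read 10.71, 9.71, 10.95 and 10.11 in control basal, 11.03, 9.95 and 10.20 in SSKO basal, and 8.48, 7.85 and 8.16 in luminal arrays. All 7 basal values of Cd34 were above all 3 luminal ones. At the high end was Cldn5, the tight junction claudin of endothelium, with 8.56 in SSKO array 2 and 11.72 in SSKO array 1.

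Of the receptor tyrosine kinases, Kdr and Flt4 had the widest range. Kdr (probe set 10530692), the main VEGF receptor of blood endothelium, read 9.84, 7.66, 7.53 and 8.09 in control basal, 10.55, 7.27 and 9.74 in SSKO basal, and 7.10, 6.47 and 6.60 in luminal arrays. It was above background on 5 arrays and under it in control array 2, SSKO array 2 and all luminal arrays. Flt4 (probe set 10375578), the receptor for VEGF-C, read 8.00, 6.24, 6.69 and 6.78 in control basal, 9.18, 6.54 and 9.55 in SSKO basal, and 6.05, 6.24 and 6.31 in luminal arrays. Flt4 was above background on 3 arrays only, control array 1 and SSKO arrays 1 and 3, and was one of 4 tested members highest in SSKO array 3. Its mean over all arrays was 7.16, with group means of 6.93 in control basal, 8.42 in SSKO basal and 6.20 in luminal cells. It passed the dim filter, set at 6.74, only through its SSKO values, so its tests with SSKO cells are not independent of the filter. Flt1, a VEGF receptor that can act as a decoy, and Tek and Tie1, the angiopoietin receptor and its partner, spanned 2.51, 2.90 and 2.69 over the basal arrays.

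The transcription factors gave the same order for some genes and not for others. Erg (probe set 10441093), an ETS factor of endothelium, read 8.59, 7.45, 7.63 and 7.68 in control basal, 9.32, 7.16 and 8.53 in SSKO basal, and 7.02, 6.93 and 6.80 in luminal arrays. Sox17 (probe set 10352936), a factor of arterial endothelium, read 9.04, 6.79, 6.76 and 7.08 in control basal, 9.63, 6.72 and 7.48 in SSKO basal, and 6.85, 6.68 and 6.51 in luminal arrays. It was above background on 3 arrays, and SSKO array 3 stood well below SSKO array 1, unlike for Flt4. Sox18, a SOX factor of blood and lymphatic endothelium, spanned 1.60 over the basal arrays and reached 10.46 and 9.83 in luminal arrays 1 and 2, against 7.43 in luminal array 3. Tal1, a factor shared by endothelial and blood precursors, had the narrowest basal range of the 31, at 0.49.

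Egfl7 and Ramp2 had the widest range among the secreted and vasoactive genes. Egfl7 (probe set 10470283), a secreted protein of the endothelial matrix, read 9.26, 7.94, 8.10 and 8.22 in control basal, 10.54, 7.73 and 10.26 in SSKO basal, and 8.47, 8.34 and 8.26 in luminal arrays. Ramp2 (probe set 10381298), which makes a receptor for adrenomedullin together with Calcrl, read 9.02, 7.32, 8.09 and 7.41 in control basal, 10.03, 7.43 and 8.70 in SSKO basal, and 7.20, 7.30 and 7.13 in luminal arrays. Both were again highest in SSKO array 1. Vwf (probe set 10541910), von Willebrand factor, which megakaryocytes make too, read 8.75, 7.86, 8.50 and 7.49 in control basal, 9.40, 7.45 and 7.45 in SSKO basal, and 9.67, 9.76 and 9.31 in luminal arrays. Its 3 luminal values were above all 4 control basal values, against the order of most members. Apln, a peptide ligand, Aplnr, its receptor, and Esm1, a proteoglycan of sprouting vessels, spanned only 0.61, 0.78 and 0.87 over the basal arrays.

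The lymphatic genes separated SSKO array 3 from control array 1. Lyve1 (probe set 10566934), the hyaluronan receptor of lymphatic endothelium and of some macrophages, read 10.40, 8.35, 8.75 and 8.67 in control basal, 12.53, 7.98 and 12.84 in SSKO basal, and 6.84, 6.87 and 6.73 in luminal arrays. SSKO arrays 1 and 3 were above every control array, and SSKO array 2 was below every control array. Its range over the basal arrays, 4.86 or 29.1-fold, was the widest of the 31 genes. Prox1 (probe set 10361023), the factor that sets lymphatic identity, read 6.56, 6.16, 6.04 and 6.42 in control basal, 8.14, 5.79 and 9.41 in SSKO basal, and 7.74, 7.67 and 7.46 in luminal arrays. Prox1 was under background on all 4 control basal arrays and SSKO array 2, and just above it on the luminal arrays. Mmrn1, a matrix protein of lymphatic endothelium and platelets that was too dim for the tests, read 7.57, 5.52, 6.59 and 6.96 in control basal, 9.33, 5.38 and 8.78 in SSKO basal, and 5.02, 4.77 and 5.72 in luminal arrays.

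**Figure D2:**
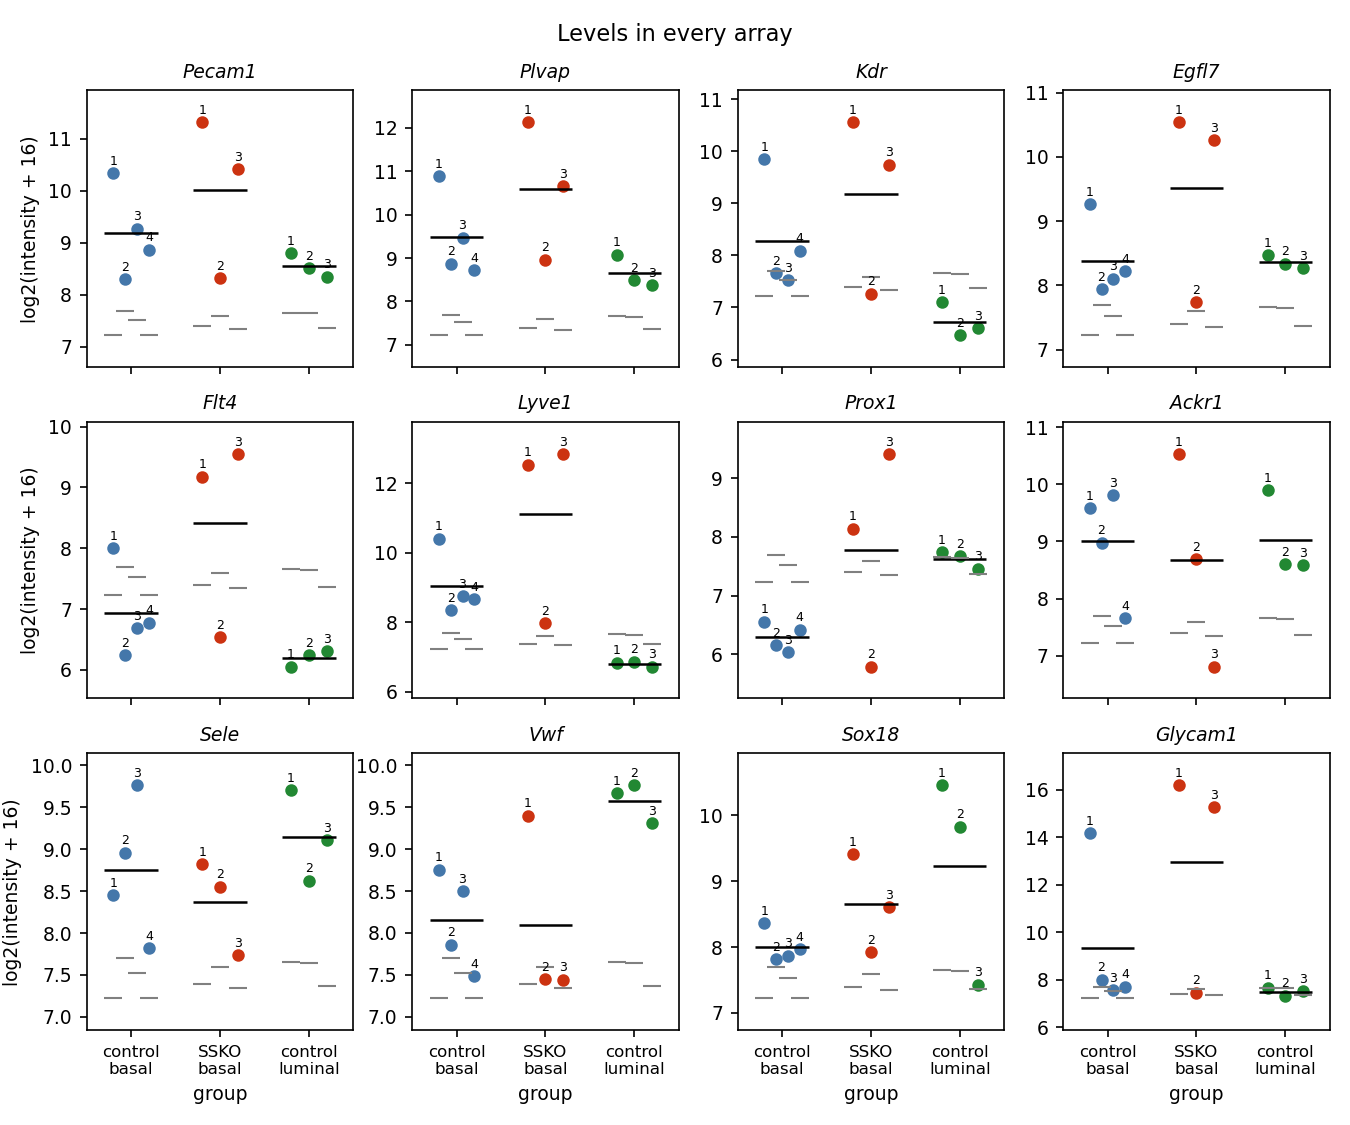
Log2 levels of single genes are plotted by group, with a point per array numbered by replicate, a black bar at the group mean and grey dashes at each array's background. Lyve1, Prox1 and Flt4 show SSKO arrays 1 and 3 high and SSKO array 2 low, while Ackr1 and Sele show SSKO array 3 as the lowest basal array.

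The venule genes went another way. Ackr1 (probe set 10360344), the chemokine receptor of venules, read 9.58, 8.98, 9.81 and 7.65 in control basal, 10.53, 8.69 and 6.81 in SSKO basal, and 9.89, 8.60 and 8.59 in luminal arrays. SSKO array 3, the highest for Lyve1 and Prox1, was the lowest of all 10 for Ackr1 and the only one under background. Sele (probe set 10351182), the selectin that inflamed venules show to leukocytes, read 8.45, 8.96, 9.76 and 7.82 in control basal, 8.82, 8.55 and 7.74 in SSKO basal, and 9.70, 8.62 and 9.11 in luminal arrays. The luminal values of Sele lay inside the range of its control basal values, and for Ackr1 luminal array 1 was just above that range and the other luminal arrays inside it.

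Glycam1, the mucin of high endothelial venules and of lactating epithelium, is given because earlier results on these arrays had shown that it varied. It read 14.16, 7.99, 7.56 and 7.70 in control basal, 16.18, 7.45 and 15.25 in SSKO basal, and 7.66, 7.32 and 7.52 in luminal arrays. The same 3 basal arrays were high and the rest were close to background. Of the other genes of high endothelial venules, Madcam1 (an addressin) and Fut7 (a fucosyltransferase) were above background on 0 arrays and Chst4 (a sulfotransferase) on 1. Of the 6 measured T and B cell markers of 7 listed, Cd3g, Cd2, Cd79a and Ms4a1 were above background on 0 arrays, and Cd3e and Cd79b were above it on all 10. The summed intensity of these lymphocyte markers was 544 to 848 in control basal, 685 to 777 in SSKO basal and 563 to 692 in luminal arrays.

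Averaged over genes as the deviation from each gene's mean over the basal arrays, the 3 kinds of endothelial marker gave different orders. The 26 tested blood markers stood at 0.54, -0.67, -0.31 and -0.52 in control basal arrays 1 to 4, at 1.29, -0.74 and 0.40 in SSKO basal arrays 1 to 3, and at -0.56, -0.90 and -0.98 in luminal arrays 1 to 3. The 3 tested lymphatic markers (Flt4, Lyve1 and Prox1) stood at 0.18, -1.23, -0.98 and -0.85 in control basal, at 1.81, -1.38 and 2.46 in SSKO basal, and at -1.26, -1.22 and -1.31 in luminal arrays. The 2 tested venule markers (Ackr1 and Sele) stood at 0.29, 0.24, 1.06 and -0.99 in control basal, at 0.95, -0.11 and -1.45 in SSKO basal, and at 1.07, -0.11 and 0.12 in luminal arrays. SSKO array 1 was high in all 3 classes. SSKO array 3 was highest for lymphatic markers, below SSKO array 1 and control array 1 for blood markers, and lowest for venule markers. The lymphatic and venule classes rest on 3 and 2 genes, so these orders describe those genes. Of the lymphatic genes, Flt4 had passed the dim filter only through its SSKO values.

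**Figure D3:**
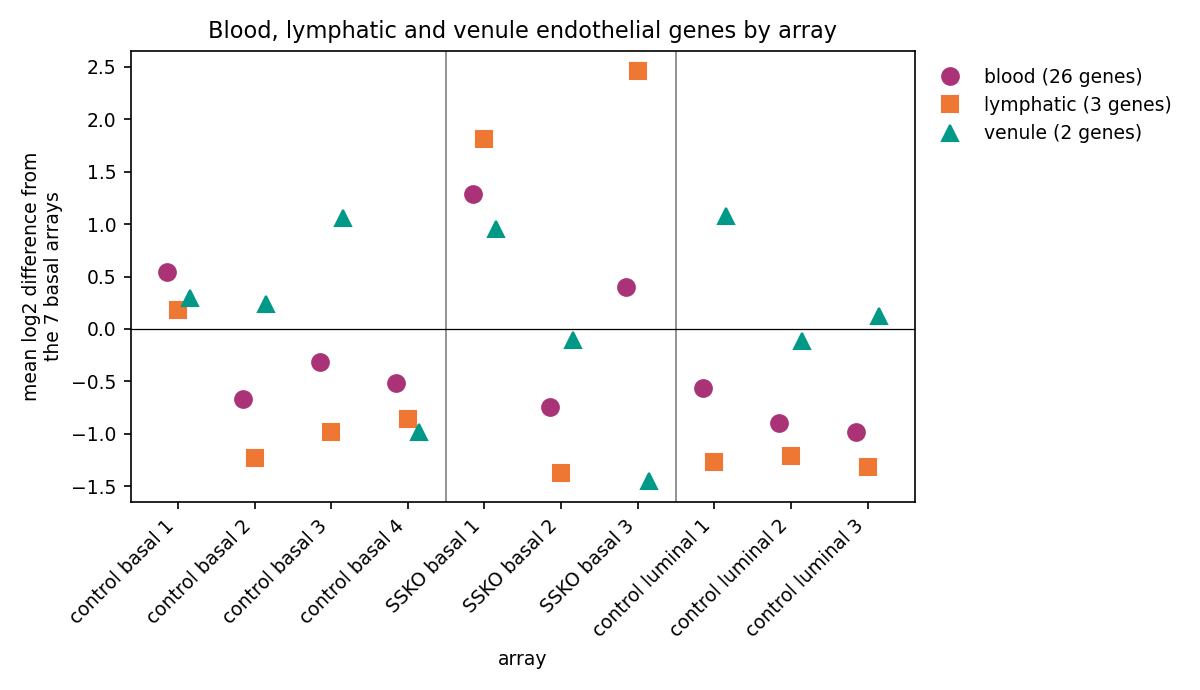
For each array the mean log2 deviation from the basal mean is plotted for blood, lymphatic and venule markers. In SSKO array 3 the lymphatic value is 2.46, the blood value 0.40 and the venule value -1.45.

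Within the basal groups these genes varied more between arrays than most genes did. Over the 7 basal arrays the range of a member had a median of 2.54, against 0.57 over all genes tested, and 26 of the 31 had a range above the 95th percentile of all genes, 1.43. Among control basal arrays alone the median range was 1.32, against 0.50. Among SSKO basal arrays it was 2.54, against 0.30. Among luminal arrays it was 0.45, against 0.33, and 3 of 31 were above the 95th percentile there. SSKO array 1 was the highest basal array for 24 of the 31 members and for 8.37% of all genes. Control array 1 and SSKO arrays 1 and 3 were among the highest 3 of the 7 for 28, 29 and 25 members, and the other basal arrays for 1 to 5. Of all genes, 42.7%, 38.6% and 38.4% had these 3 arrays there, and 42.0% to 50.4% the others.

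The first comparison asked whether loss of Pygo2 changed these genes in basal cells. By limma with Benjamini-Hochberg adjustment over all genes, 0 of the 31 members were called at an adjusted p under 0.05 in either direction, where 0.0379% of all genes were called (0.0316% higher and 0.00632% lower in SSKO). At an unadjusted p under 0.05 there were 2 members, Flt4 and Prox1, against 3.03% of all genes. Flt4 had entered the tests only through its SSKO values. Of the 31 differences, 28 were above 0 and 3 below, with a median of 0.58 against 0.01 over all genes. No member had groups without overlap, against 4.46% of all genes.

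Single differences were smaller than the spread between arrays allowed the test to call. Lyve1 was 2.07 higher in SSKO (SE 0.97, 95% interval -0.06 to 4.20; exact two-sided permutation p = 0.257, where 35 splits allow no p below 0.0286). Flt4 and Prox1 were each 1.49 higher (SE 0.62 for both; exact permutation p = 0.229 and 0.171). Pecam1 was 0.82 higher (SE 0.62, interval -0.55 to 2.19, exact permutation p = 0.343). Plvap and Egfl7 were 1.10 and 1.13 higher (SE 0.67 and 0.57). Kdr, Ramp2, Emcn, Sox17 and Erg were between 0.50 and 0.90 higher, with exact permutation p from 0.400 to 0.571. Ackr1 and Sele were lower by 0.33 (SE 0.77) and 0.38 (SE 0.43) in SSKO cells. Glycam1 was 3.61 higher (SE 2.03, exact permutation p = 0.257). The limma adjusted p was 0.9998 for each of these genes.

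The result depended on which SSKO array entered. Without SSKO array 2, limma called 4 members higher in SSKO, namely Flt4 (2.44, adjusted p = 0.0485), Egfl7 (2.02, adjusted p = 0.0427), Lyve1 (3.64, adjusted p = 0.0117) and Prox1 (2.48, adjusted p = 0.0097), and the median difference was 1.18. In that fit 27 of all genes (0.171%) were called, each higher in SSKO. Flt4 had passed the dim filter only through its SSKO values, so its call is no separate support. Without SSKO array 1 limma called 0 members (0.0379% of all genes) and the median was 0.10. Without control array 1 it called 0 (0.0316% of all genes) and the median was 0.92. At such shares a count of 0 says little about the members. The difference between arrays of the same replicate number varied with that number. SSKO array 1 exceeded control array 1 in 30 of 31 members (median 0.85). SSKO array 2 exceeded control array 2 in 14 and lay below it in 17 (median -0.02). SSKO array 3 exceeded control array 3 in 26 members (median 0.67), with 4.08 for Lyve1 and 3.37 for Prox1, and lay 3.00 below it for Ackr1 and 2.02 below it for Sele.

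**Figure D4:**
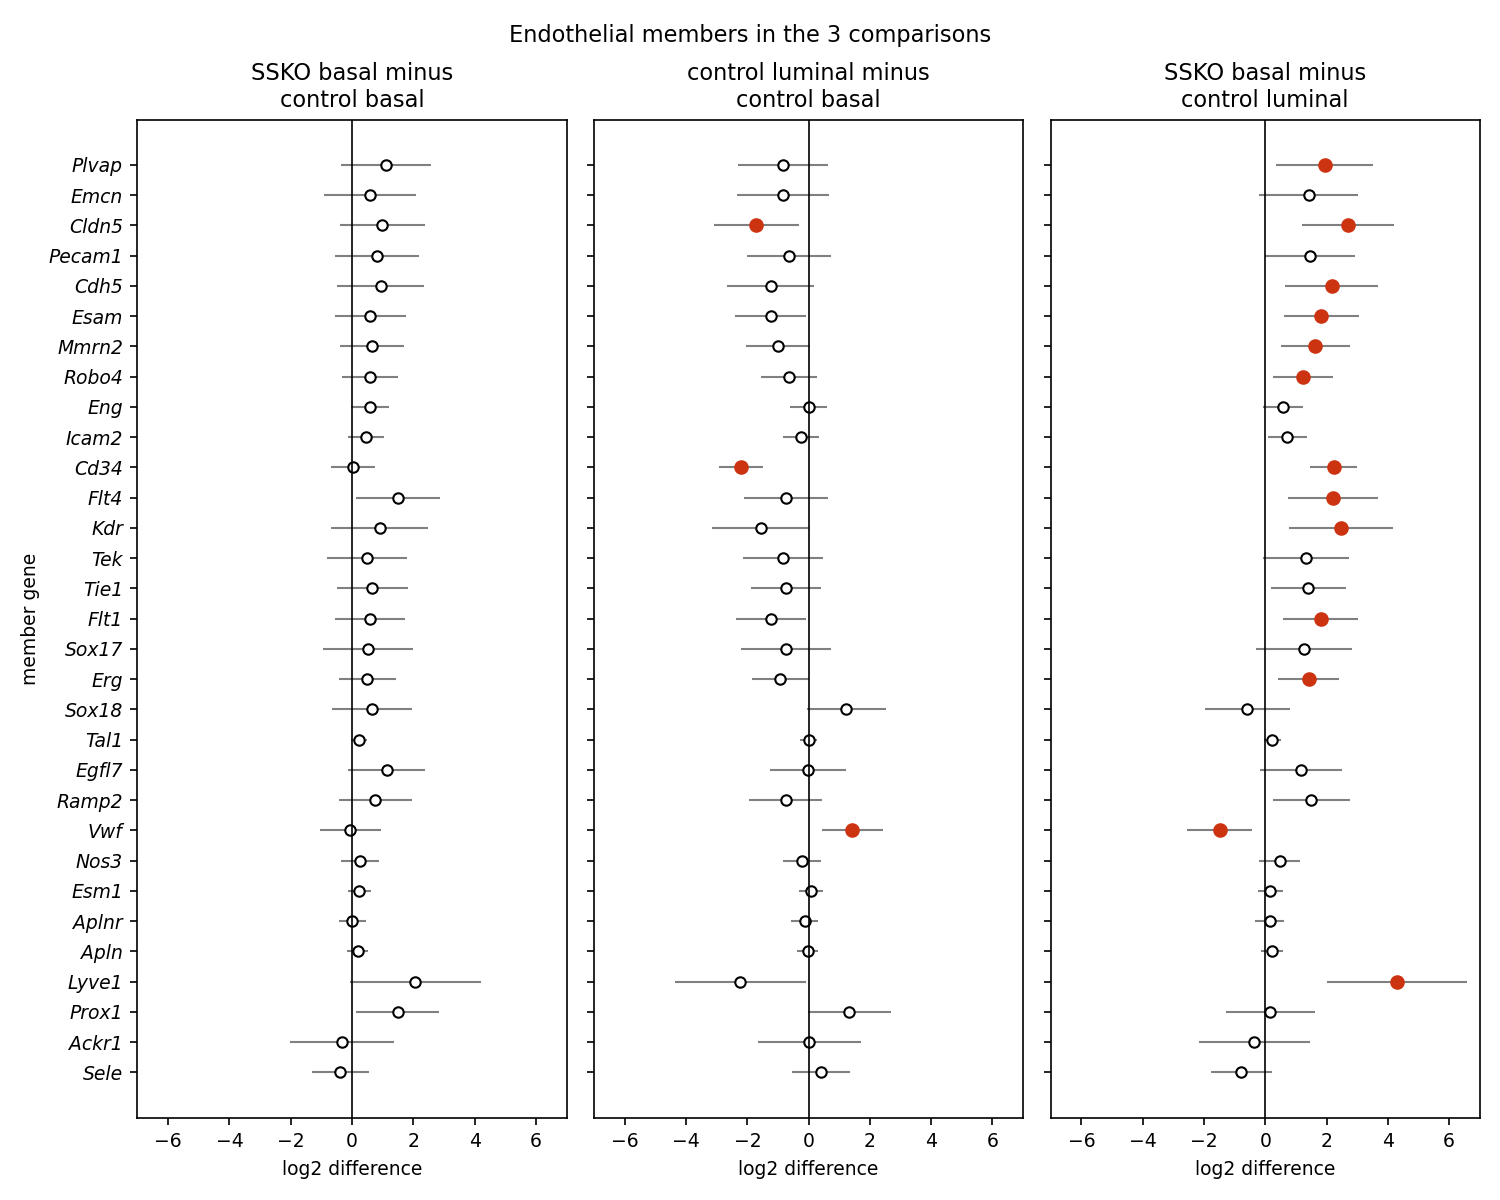
Points are log2 differences between group means for the tested members in each comparison, bars are 95% confidence intervals, and filled red points were called at an adjusted p under 0.05. No point is red for SSKO against control basal cells, 3 are for luminal against control basal cells, and 13 are for SSKO basal against luminal cells.

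The second comparison set the control luminal against the control basal cells. Vwf was higher in luminal cells and Cd34 and Cldn5 were lower, so 1 of 31 members was called higher, where 24.6% of all genes were, and 2 lower, where 19.7% were. Cd34 was lower by a log2 difference of 2.21 (SE 0.32, limma adjusted p = 0.000201), a 4.62-fold difference. Cldn5 was lower by 1.71 (SE 0.63, limma adjusted p = 0.0470), and this call was lost without any 1 of 7 arrays, each of the 4 control basal and 3 luminal ones. Vwf was 1.43 higher (SE 0.45, limma adjusted p = 0.0234), and was not called without control array 2 or 4 or luminal array 1 or 2. The median member difference was -0.73, against 0.07 over all genes, and 25 of 31 were below 0. The 3 luminal arrays lay below all 4 control basal arrays for 10 members (20.5% of all genes did) and above them for 2, Vwf and Prox1 (25.8% did). Several of the wider differences did not pass, among them Lyve1 at -2.23 (SE 0.97, limma adjusted p = 0.0858), Kdr at -1.56 (SE 0.72, limma adjusted p = 0.105), Prox1 at 1.33 (SE 0.62, limma adjusted p = 0.106) and Sox18 at 1.24 (SE 0.59, limma adjusted p = 0.117).

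The third comparison set the SSKO basal against the control luminal cells, which differ in both cell population and genotype and share their luminal arrays with the second comparison. Here 12 of 31 members were called higher in the SSKO basal cells, where 19.0% of all genes were, and 1 lower, where 23.3% were. The SSKO basal arrays lay above all luminal arrays for 14 members (24.2% of all genes did). The 12 called genes comprised 7 junction and surface genes, 3 receptor tyrosine kinases, 1 transcription factor (Erg) and 1 lymphatic gene (Lyve1). Among the 12, Flt4 had passed the dim filter only through its SSKO values. Lyve1 was 4.30 higher (SE 1.03, limma adjusted p = 0.00581), Cldn5 2.70 higher (SE 0.68, limma adjusted p = 0.00731) and Cd34 2.23 higher (SE 0.35, limma adjusted p = 0.000343). These 3 calls held when any 1 array was left out, and the other 10 were each lost without at least 1 array. Cdh5 (the cadherin of endothelial junctions), Esam (an adhesion molecule of tight junctions), Mmrn2 (an endothelial matrix protein), Robo4 (a guidance receptor) and Plvap were 1.22 to 2.17 higher, and Flt1, Flt4 and Kdr 1.81, 2.22 and 2.46 higher. Vwf was lower by 1.48 (SE 0.48, limma adjusted p = 0.0286) in the SSKO basal cells.

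Of the measured members, 14 were at or under background on every luminal array, so a difference from luminal cells is bounded by background there. Against the background in place of the luminal value, the SSKO basal mean was at least 11.8-fold higher for Lyve1, 3.10-fold for Kdr, 1.82-fold for Flt4 and 1.72-fold for Erg. These bounds rested on SSKO arrays 1 and 3, since in SSKO array 2 Kdr, Flt4 and Erg were themselves under its background of 7.59. With 1 SSKO array left out in turn, they spanned 6.49 to 35.02 for Lyve1 (lowest without array 3), 1.93 to 6.02 for Kdr (lowest without array 1), 1.23 to 3.51 for Flt4 (lowest without array 3) and 1.23 to 2.59 for Erg (lowest without array 1). The measured group means were 11.12 and 6.81 for Lyve1 and 9.19 and 6.72 for Kdr. The call counts in this comparison moved with single arrays. Without SSKO array 1, 3 or 2 the number called higher was 3, 4 and 22, and without luminal array 1, 2 or 3 it was 8, 4 and 6. Of all genes, 16.6%, 16.4% and 16.5% were called higher in the first 3 fits, and 15.97%, 16.3% and 18.2% in the others, so the share of all genes moved little. Without SSKO array 2 or 3 or luminal array 1 or 2, Vwf was not called lower. Without luminal array 3 a total of 2 members were called lower, against 21.8% of all genes.

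Other genes of the endothelium were listed apart from the 34. Among the 7 basal arrays, control array 1 and SSKO arrays 1 and 3 were in the highest 3 for 23, 27 and 23 of the 28 that were tested, and the other arrays for 2 or 3. Of all genes, 42.7%, 38.6% and 38.4% had these 3 arrays there, and 42.0% to 50.4% the others. Of the 30 further endothelial genes 28 were tested, and 0 were called between the basal groups by limma, against 0.0379% of all genes. At an unadjusted p under 0.05 there were 3, against 3.03% of all genes. In luminal against control basal cells 7 were called lower (19.7% of all genes were). In SSKO basal against luminal cells 17 were called higher (19.0% of all genes were). The median differences of the 28 were 0.51, -0.75 and 1.38 in the 3 comparisons. Stab1 and Stab2, scavenger receptors of sinusoidal and lymphatic endothelium, read 9.18 and 9.33 in SSKO array 1 and 9.71 and 9.32 in SSKO array 3. In the other 8 arrays both lay between 6.73 and 7.71. Tspan18, a tetraspanin found in endothelium, was lower by 4.52 in luminal cells (SE 0.34, limma adjusted p = 1.23e-06), and it read 9.94 to 11.33 in all basal arrays. Fli1, an ETS factor, was lower by 1.39 in luminal than in control basal cells (SE 0.29, limma adjusted p = 0.00201).

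Some ligands and co-receptors of the endothelial receptors differed between the sorted basal and luminal populations. Which cells within them made these transcripts was not tested. Of 16 listed 15 were tested, and limma called 0 between the basal groups, against 0.0379% of all genes. At an unadjusted p under 0.05 there were 0, against 3.03% of all genes. In luminal against control basal cells 8 were called lower (19.7% of all genes), 1 higher (24.6%) and 6 in neither direction. In SSKO basal against luminal cells 8 were called higher (19.0%), 1 lower (23.3%) and 6 in neither direction. Vegfc, the ligand of Flt4, was lower by 2.41 in luminal than in control basal cells (SE 0.13, limma adjusted p = 1.03e-07), and it varied only from 8.41 to 8.64 over the 7 basal arrays while Flt4 spanned 3.31. Cxcl12, a chemokine, was lower by 3.60 (SE 0.34), and Jag1, a Notch ligand, by 1.86 (SE 0.11).

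Markers of other cell types were read in the same arrays, with summed intensities over each list as measured. Pericyte markers (6 of 6 measured) summed to 2239 to 3351 in control basal, 2360 to 3850 in SSKO basal and 2439 to 3002 in luminal arrays. Notch3, which read 8.28 to 8.71 in control basal and 10.76 to 11.23 in luminal arrays, weighed heavily in the luminal sum. Of the 6, limma called 4 lower in luminal than in control basal cells (19.7% of all genes) and 1, Notch3, higher (24.6%). Only 2 of the 6 were above background on each luminal array. Rgs5, a signalling regulator of pericytes, read 10.22, 8.87, 9.40 and 9.01 in control basal, 10.40, 9.08 and 9.86 in SSKO basal, and 8.52, 8.05 and 7.79 in luminal arrays, with the same 2 first arrays on top. Abcc9 and Kcnj8 were also highest in SSKO array 1 among the basal arrays. Pdgfrb was highest in control array 3, Cspg4 in control array 4 and Notch3 in SSKO array 3, so the list gave no single order. Fibroblast markers (6 of 6) summed to 10834 to 20322 in control basal, 9784 to 14327 in SSKO basal and 1257 to 6554 in luminal arrays, and all 6 were called lower in luminal than in control basal cells, against 19.7% of all genes. Leukocyte markers other than those of T and B cells (6 of 6) summed to 1439 to 2522, 1800 to 3015 and 978 to 1126 in the same order. Of these, Ptprc, which encodes the gated CD45, was above background on 0 arrays. Cd68 and Itgam were above it on all 10, Cd74 on 7, Csf1r on 6 and Lyz2 on 5. Platelet markers (4 of 5 measured) summed to 491 to 614, 561 to 747 and 469 to 538. Pf4 and Ppbp were above background on 0 arrays, Gp9 on 8 and Itga2b on 9. Adipocyte markers (4 of 5) summed to 477 to 539, 578 to 776 and 454 to 490. Adipoq was above background on 0 arrays, Lep and Cidec on 1 each and Plin1 on all 10. Of the erythroid markers only Alas2 was measured, and it was above background on 0 arrays.

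The blood endothelial markers themselves summed to 8328 to 20795 in control basal, 8131 to 38277 in SSKO basal and 7164 to 9505 in luminal arrays. The lymphatic markers summed to 456 to 1830, 377 to 9127 and 350 to 364 in the same order. In the lists of other cell types given here, the basal and luminal lists included, limma called 0 genes between SSKO and control basal cells at an adjusted p under 0.05. The share of all genes called was 0.0379%, so a count of 0 says little about these lists. At an unadjusted p under 0.05, where 3.03% of all genes lay, there were 2 of the 3 tested adipocyte genes. There was 1 in each of the high endothelial venule, luminal, platelet, pericyte and fibroblast lists, of 3, 5, 2, 6 and 6 tested. The basal, T and B cell, other leukocyte and erythroid lists had 0, of 6, 2, 6 and 1 tested. The part of these other cell types in the differences of the endothelial genes was not tested. The basal markers, 6 of 6 measured, summed to 44526 to 50487 in control and 44101 to 48995 in SSKO basal arrays, a narrow range beside that of the endothelial genes. The luminal markers, 5 of 6 measured, summed to 11840 to 15969 and 16806 to 20168.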

How the data were processed

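Intensities per probe set, on a linear scale, were deposited by the authors for 10 arrays. Per the submitters' processing notes, Affymetrix Expression Console 1.1 and PLIER 2.0 were used; any scaling between arrays, and any batch, are not given in the sources used here. Probe sets (28815) were named by the platform annotation, 21780 with 1 symbol, 1605 with several and 5430 with none; 21689 symbols matched the current gene table. A pseudocount of 16 was added before log2, the dimmest 25% of probe sets (mean log2 under 6.74) were dropped, and the brightest probe set stood for a gene. limma 3.58.1 in R 4.3.3 fitted 3 group means to all 10 arrays (two-sided, Benjamini-Hochberg over 15815 genes, called at an adjusted p under 0.05), and the fit was tested on simulated data. The number of arrays limits the precision, and p-values reflect only how these samples varied.

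Values in every array are given for Pecam1, for the 2 tested members of widest basal range in each role, and for Glycam1. Those of Cldn5, Cd34, Vwf, Sox18, Mmrn1, Stab1, Stab2, Rgs5 and Notch3 are given in whole or part, and these genes were singled out after their values were seen. The genes and lists were chosen with earlier results of these data known. Same-numbered control and SSKO basal arrays deviated together over all genes (correlations 0.56, 0.46 and 0.23). Control arrays 1 to 3 each matched best with the SSKO array of the same number. The third correlation was weak and the labels state no pairing, so whether the numbers pair these groups is not settled. The main fit used no pairing. Alternatives covered the pseudocount, scaling, filter, probe set rule, groups fitted, array weights, variance trend, replicate block and each array left out.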

Additional observations from a re-analysis of the deposited data

Results flagged for a closer look

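Values of single genes in the 4 control basal arrays were examined for an array that stands apart by its gap to the nearest other, relative to the whole range (Dixon's 95% limit). Of the 33 measured members, only Sox17 had such an array, where chance alone gives about 1 in 20. Glycam1 was examined beside them because earlier results had shown that it varied. It had such an array too, which is not set against that rate. Sox17 read 9.04 in control basal array 1 against 6.76 to 7.08 in the other 3 arrays, a gap of 0.859 of the range. Glycam1 read 14.16 in control basal array 1 against 7.56 to 7.99 in the other 3 arrays, a gap of 0.935 of the range. In both cases it was the same array.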

How the results depend on the processing

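No member was called between SSKO and control basal cells under any alternative that kept all arrays, among them the replicate block (median difference 0.47, with 0 members called). In those alternatives 0.0190% to 0.0470% of all genes were called. Leaving out 1 array gave 0 to 4 members higher and 0 lower (0.00632% to 0.171% and 0% to 0.0126% of all genes). The block changed no member call there. Pygo2 lost its call, since no gene was called lower, with quantile normalization, the dimmest 50% dropped, only the 2 groups fitted or the replicate block. The same held without any 1 of control basal arrays 1, 2 and 4, SSKO basal arrays 2 and 3, and luminal arrays 1 and 3. Cldn5 lost its call, and the luminal against control basal count of lower members was 1, under several settings. These were a pseudocount of 64, quantile normalization, arrays centred on the median, no dim filter and array weights. In these settings 15.7% to 21.1% of all genes were called lower. The count of lower members was 9 with only the 2 groups fitted (18.7% of all genes) and 7 with the replicate block (19.5%). Same-numbered arrays of these groups correlated at -0.17, -0.14 and 0.09. The count of higher members was 2 with only the 2 groups fitted or array weights (22.7% and 26.5% of all genes). Leaving out 1 array gave 0 to 2 higher and 1 to 9 lower (20.8% to 25.3% and 17.0% to 19.3% of all genes). The SSKO basal against luminal count of higher members was 19 with the replicate block, against 19.5% of all genes. Same-numbered arrays of those groups correlated at 0.09, 0.03 and 0.18. The count was 7 without control basal array 1 and SSKO basal array 1 together (17.2% of all genes), an alternative chosen after seeing the data. Leaving out 1 array gave 3 to 22 higher and 0 to 2 lower (15.97% to 19.3% and 19.2% to 24.2% of all genes).

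Some small differences changed sign. For Egfl7, luminal against control basal, the value was 0.018 after quantile normalization, 0.014 after centring and 0.025 with array weights, and -0.17 to 0.27 with 1 array left out. For Ackr1 in that comparison it was -0.024 after quantile normalization and -0.43 with the replicate block, and -0.43 to 0.29 with 1 array left out. With 1 array left out, SSKO against control basal spanned -0.19 to 1.38 for Emcn, -0.32 to 1.14 for Sox17 and -1.26 to 0.60 for Ackr1, and SSKO basal against luminal spanned -1.28 to 0.58 for Ackr1 and -0.66 to 1.15 for Prox1. The lymphatic value of luminal arrays 1 and 2 was -1.48 and -1.51 with Mmrn1 included, and that of luminal array 3 was -1.18 after quantile normalization. With the median of all probe sets as the background, 16 members in control basal array 4 and 11 in luminal array 3 lay above it. Centring moved the median of all genes to 0.11 and -0.11 in the 2 comparisons with luminal cells. Causes of these shifts were not tested.

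Members at or under background, as 14 were on all luminal arrays, have only a bound there. With 3 or 4 arrays a group, the intervals of most members between the basal groups spanned more than 1 log2 unit on either side of the estimate.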
